A study of Mus musculus with 10 samples.

Results

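The 7 sirtuin genes, Sirt1 to Sirt7, and 3 genes of NAD salvage, Nampt, Nmnat1 and Naprt, were followed in the livers of mice fed a Longevity diet or a standard diet. They were taken by gene symbol, and all 10 were found among the 19414 genes of the deposited table. All 10 animals were females of the HET3 stock, which is bred by crossing several inbred strains so that each mouse carries its own genotype. For 5 months, 5 received the standard diet (SD) and 5 the Longevity diet (LD). Their age is given as 25 months; the labels leave unclear if feeding began or finished at that age, and they do not describe the composition of either diet. Whole-liver polyadenylated RNA was sequenced, 1 library per mouse, and each mouse is named here by its title, such as LD_405.

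Sirtuins are enzymes that remove acetyl and other acyl groups from lysines, or transfer ADP-ribose, and consume NAD+ while doing so. The nicotinamide they release is returned to NAD+ by salvage, in which Nampt makes nicotinamide mononucleotide and the Nmnat enzymes convert it to NAD+. The liver can in addition build NAD+ from nicotinic acid, starting with Naprt, and from tryptophan. Sirtuins are widely studied in the liver for their part in the response to fasting and in ageing.

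On the Longevity diet, 0 of the 10 genes changed in the test across all genes (limma on log2(CPM + 0.1), Benjamini-Hochberg adjusted p under 0.05), against 1.89% of the 13157 genes tested, of which 87 rose and 162 fell. That split depended on the scaling, with 151 higher and 138 lower under median-of-ratios scaling and 151 higher and 148 lower under quantile normalisation. CPM is the number of reads of a gene per 1e+06 reads assigned to all genes of a library. All 10 genes passed the filter of a mean of 1 CPM. Of the 10, 0 had an unadjusted p under 0.05, against 17.5% of all genes, and 0 had values that did not overlap between the diets, against 5.5% of all genes. The log2 difference, LD minus SD, was positive for 6 and negative for 4 of them, with a median of 0.08 over the 10 genes and of -0.11 over all genes. The median absolute log2 difference was 0.22 for the 10 genes and 0.30 for all genes. Their median SE was also smaller, at 0.21 for the 10 genes and 0.28 for all genes, so the 2 medians are not measured equally well. The smallest adjusted p among them was 0.353, for Nampt. Their 95% confidence intervals together reached from 0.360-fold to 2.06-fold, so that differences inside these intervals could not be resolved with 5 mice per diet. Because whole liver was sequenced, fewer cells of a type and less RNA per cell cannot be told apart.

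**Figure D1:**
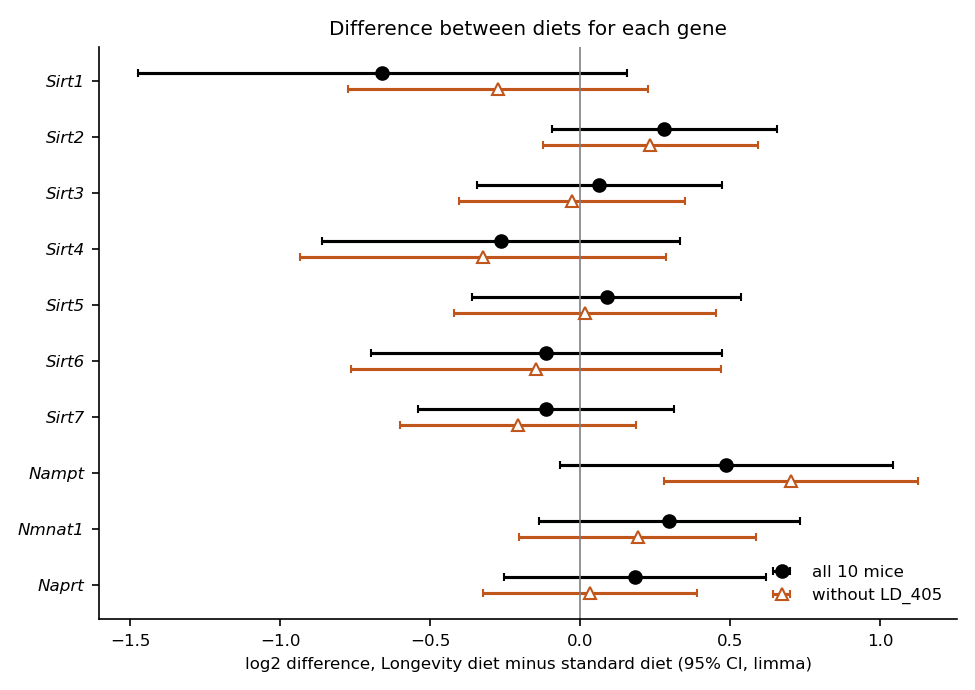
Log2 difference between the diets (x axis, LD minus SD, with 95% confidence interval from limma) for each of the 10 genes (y axis), with all 10 mice (filled circles) and without LD_405 (open triangles). All 10 intervals from all mice include 0, and without LD_405 the interval of Nampt runs from 0.28 to 1.13. The intervals are not adjusted for the number of genes, and Nampt was not called without LD_405 (limma adjusted p = 0.0754).

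The libraries differed in ways other than diet. Depth, estimated from the step between low CPM values, was 42.5 ± 4.35 M reads (SD, n = 5; M, 1e+06) on the standard diet and 29.9 ± 6.48 M reads (SD, n = 5) on the Longevity diet (exact permutation p = 0.0159, two-sided). LD_405 stood apart in the relation of expression to transcript length, with a slope of -0.40 log2 units per doubling of length, while the other 9 mice ranged from -0.13 to 0.27. Mitochondrial genes took 5.12% to 11.4% of the CPM in the SD mice and 3.25% to 7.21% in the LD mice, the lowest being LD_405. Markers of hepatocytes (10 of 10 genes, none at 0) summed to 101806 to 144390 CPM on the standard diet and to 145199 to 201005 CPM on the Longevity diet, in keeping with the labelled tissue. The higher LD sum did not hold marker by marker. Of these 10 genes, 4 had a positive and 6 a negative log2 difference, from -0.98 to 1.68, with a median of -0.09. None was called (0, against 1.89% of all genes), but 7 had an unadjusted p under 0.05, against 17.5% of all genes. Summed markers of endothelial cells (10 genes, SD 258 to 362 CPM, LD 110 to 222 CPM, with Lyve1 at 0 in at least 1 mouse) and of stellate cells (10 genes, none at 0, SD 345.9 to 513.5 CPM, LD 176 to 314 CPM) were lower in all 5 LD mice than in any SD mouse. Kupffer cell markers (10 genes, none at 0, SD 402 to 720 CPM, LD 241 to 789 CPM), T and B cell markers (10 genes, Cd3d and Trac at 0 in at least 1 mouse, SD 20.0 to 51.6 CPM, LD 2.94 to 37.5 CPM) and cholangiocyte markers (5 genes, Krt7 at 0 in at least 1 mouse, SD 26.8 to 58.8 CPM, LD 26.4 to 46.4 CPM) overlapped. Of the tested markers, S100a8 of neutrophils and Pdgfrb of stellate cells fell, both named after their values were seen. Leaving out 1 mouse ended the call of S100a8 for 9 of the 10 mice (all but SD_502, adjusted p up to 0.126) and that of Pdgfrb for 5 (SD_403, SD_501, SD_500, LD_406 and LD_515, up to 0.0868). With the first digit of the mouse number as a covariate, which takes SD_646 out of the comparison, both calls ended (0.119 and 0.0915), and S100a8 also lost its call without the trend and robust options of limma (0.0664) and with a filter at 5 CPM (0.0692). The part of cell composition, mitochondrial share and depth in the differences given here was not tested.

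Per kilobase of exons, Naprt was the most abundant of the 10 mRNAs. Its level was 51.8 ± 12.3 CPM per kilobase (SD, n = 10 mice), and its lowest mouse, at 37.5, stood above every value of the other 9 genes. Next came Sirt3 at 12.1 ± 2.20, Nampt at 11.0 ± 3.56, Sirt2 at 8.88 ± 1.56 and Sirt7 at 8.23 ± 1.55 CPM per kilobase. Nmnat1 (5.68 ± 1.29) and Sirt4 (4.502 ± 1.18 CPM per kilobase) were intermediate. The lowest levels were those of Sirt1 (1.75 ± 0.628), Sirt5 (1.46 ± 0.234) and Sirt6 (1.24 ± 0.277 CPM per kilobase). Of the 9 pairs of neighbours in this order, 8 overlapped over the mice, the exception being Naprt and Sirt3. With the length of the longest transcript in place of the exon union, Naprt again came first and Sirt6 last, Sirt2 (21.1), Sirt7 (12.9) and Nampt (12.3 CPM per kilobase) followed Sirt3 (22.6), and Sirt5 (3.67) stood above Sirt1 (2.10). The mitochondrial sirtuins thus covered most of the range of the family, from Sirt3 near its top to Sirt5 near its bottom.

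**Figure D2:**
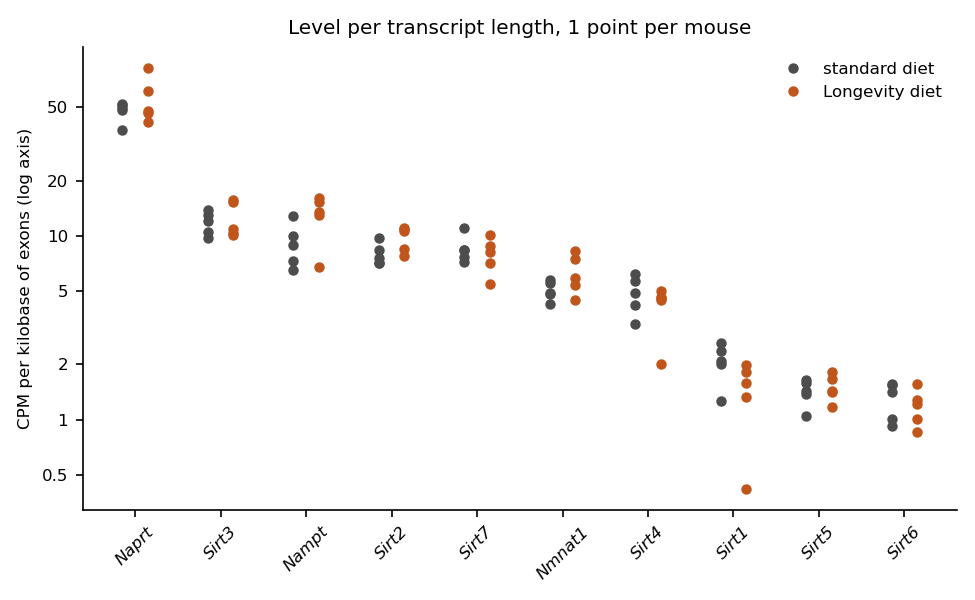
Level of each of the 10 genes (x axis, in descending order) in CPM per kilobase of exons (y axis, log scale), 1 point per mouse, grey for SD and orange for LD. Naprt lies above all others, and every other pair of neighbours overlaps.

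Nampt, which catalyses the rate-limiting step of NAD salvage from nicotinamide, had the smallest limma p of the 10 genes. Its gene lies on the plus strand at chr12:32869544-32903348 (mm39, ENSMUSG00000020572.9). On the standard diet it measured 50.3 CPM in SD_403, 44.9 in SD_501, 36.9 in SD_502, 64.8 in SD_646 and 33.1 in SD_500. On the Longevity diet it measured 34.4 CPM in LD_405, 81.3 in LD_513, 76.9 in LD_406, 68.2 in LD_515 and 65.9 in LD_442. Thus 4 of the 5 LD mice exceeded every SD mouse, while LD_405 was at the low end of the SD range. The means were 46.0 ± 12.5 and 65.4 ± 18.4 CPM (SD, n = 5 each), a 1.40-fold ratio on the log2(CPM + 0.1) scale with a 95% interval of 0.953 to 2.06 (log2 0.49, SE 0.26, limma adjusted p = 0.353, two-sided exact permutation p = 0.119). The difference between the means exceeded the SD of either diet but did not pass either test.

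The log2 difference of Nampt moved with the mouse left out, and most with LD_405. Leaving out any other mouse gave values from 0.378 (without SD_500) to 0.62 (without SD_646). Without LD_405 the LD mean was 73.1 ± 7.25 CPM (SD, n = 4), the diets did not overlap, and the log2 difference was 0.70 (95% interval 0.28 to 1.13, limma adjusted p = 0.0754). The lack of overlap was fixed by this exclusion, as LD_405 was the only LD mouse that did not exceed every SD mouse. The same exclusion left 8.36% of all genes with diets that did not overlap and 2.88% with an adjusted p under 0.05. With a weight per library, which limma estimated from the data, the log2 difference was 0.79 and passed the threshold (adjusted p = 0.0284), in a fit that called 6.12% of all genes. That was the only one of 20 alternative settings in which any of the 10 genes was called, and over all of them the adjusted p of Nampt ranged from 0.0284 to 0.571. After removal of the length slope of each library, the log2 difference was 0.55 (adjusted p = 0.208). Among SD mice, the highest Nampt values belonged to SD_646 and SD_403, the mice with the highest summed neutrophil markers. That sum was 98.6 CPM in SD_646 and 126 in SD_403, 5.31 to 18.7 in the other 3 SD mice and 1.98 to 6.44 in the LD mice. Of its 10 genes, Cxcr2, Retnlg, Mmp8, Ly6g, Camp, Ngp and Ltf were at 0 in at least 1 mouse, and its part in the values of Nampt was not tested.

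The region around the start of Nampt is shown because its transcription is known to be influenced by the circadian clock, whose factors bind E-boxes, and because it was GC-rich like those of most of the other genes here. The sequence is that of RefSeq on GRCm38.p6, plus strand, chr12:32820085-32820384, from 250 bases before to 50 bases after the gene start, and the capitals mark each GC box (GGGCGG or its complement CCGCCC):
Nampt: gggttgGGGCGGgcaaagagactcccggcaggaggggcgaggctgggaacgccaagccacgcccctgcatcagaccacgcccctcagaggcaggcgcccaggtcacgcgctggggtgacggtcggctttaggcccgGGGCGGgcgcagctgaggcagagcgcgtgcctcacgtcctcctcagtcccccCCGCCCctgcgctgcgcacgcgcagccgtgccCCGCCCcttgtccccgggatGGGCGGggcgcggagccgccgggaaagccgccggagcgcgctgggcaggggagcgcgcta
It held 5 GC boxes and none of the letters CACGTG, searched on both strands, within this window. Its GC content was 76.3%, against a median of 52.7% over 32851 windows of the same length.

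Nmnat1 encodes the nuclear enzyme that turns nicotinamide mononucleotide into NAD+ (minus strand, chr4:149552029-149569659, ENSMUSG00000028992.14). Its values were 14.6, 16.8, 13.0, 17.4 and 14.8 CPM in SD_403, SD_501, SD_502, SD_646 and SD_500, and 25.2, 13.7, 22.8, 16.5 and 17.9 CPM in LD_405, LD_513, LD_406, LD_515 and LD_442. The pair of highest values came from LD_405 and LD_406, and the other 3 LD mice were at or just above SD levels. The means were 15.3 ± 1.79 and 19.2 ± 4.69 CPM (SD, n = 5 each), with a log2 difference of 0.30 (SE 0.20, 95% interval -0.14 to 0.73, limma adjusted p = 0.469). Without LD_405 it was 0.19.

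Naprt, the first enzyme of the route from nicotinic acid, is encoded on the minus strand at chr15:75762805-75766330 (ENSMUSG00000022574.8). It measured 123 CPM in SD_403, 87.8 in SD_501, 117 in SD_502, 121 in SD_646 and 113 in SD_500. The LD values were 192 CPM in LD_405, 109 in LD_513, 143 in LD_406, 97.6 in LD_515 and 112 in LD_442. LD_405 and LD_406 again held the highest values, and the remaining 3 LD mice lay within the SD range. The difference was 0.18 on the log2 scale (SE 0.20, 95% interval -0.25 to 0.62, limma adjusted p = 0.673), and 0.03 without LD_405. Naprt shares 277 bases with Eef1d on the same strand, which had a log2 difference of 0.28, so reads there may be divided between both genes.

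**Figure D3:**
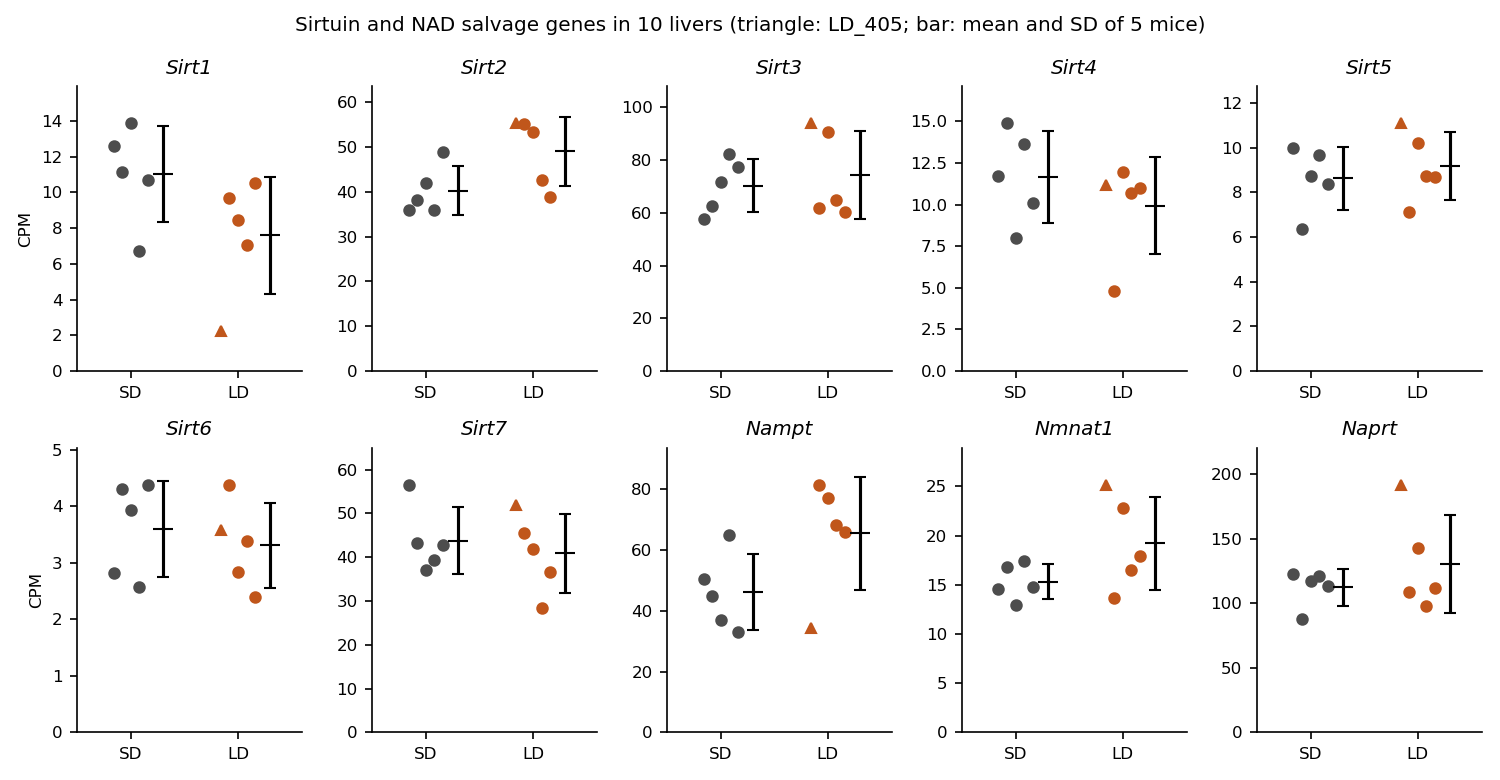
CPM (y axis, from 0, scaled per gene) of the 10 genes in every mouse by diet (x axis), with bars for mean and SD of 5 mice and a triangle for LD_405. For Nampt, LD_405 lies at 34.4 CPM while the other LD mice lie between 65.9 and 81.3; for Sirt1, LD_405 is the lowest mouse at 2.25 CPM.

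Among the nuclear sirtuins, Sirt1 is the best studied, a deacetylase of histones and of transcription factors that control gluconeogenesis and fat oxidation. Sirt1 (minus strand, chr10:63154784-63217483, ENSMUSG00000020063.17) measured 12.6, 11.2, 13.9, 6.73 and 10.7 CPM in SD_403, SD_501, SD_502, SD_646 and SD_500. In LD_405, LD_513, LD_406, LD_515 and LD_442 it measured 2.25, 9.69, 8.45, 7.08 and 10.5 CPM. LD_405 was far below the rest, and the other LD mice, at 7.08 to 10.5 CPM, lay inside the SD range of 6.73 to 13.9. Means were 11.0 ± 2.698 and 7.60 ± 3.26 CPM (SD, n = 5 each). The log2 difference of -0.66 (SE 0.38, 95% interval -1.47 to 0.15, limma adjusted p = 0.391, two-sided exact permutation p = 0.127) was the largest in size of the 10 genes and did not pass either test. It moved to -0.27 without LD_405 (adjusted p = 0.566). Sirt1 had a coefficient of variation of 36.0% over the 10 mice, the highest of the 10 genes, followed by Nampt at 32.3%.

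The window around the start of Sirt1 was the only one of those found for these genes that held an E-box, the letters CACGTG that the clock factors CLOCK and BMAL1 recognise. It is given from RefSeq on GRCm38.p6, minus strand, chr10:63338986-63339285, read 5′ to 3′ in the direction of the gene, with both E-boxes in capitals:
Sirt1: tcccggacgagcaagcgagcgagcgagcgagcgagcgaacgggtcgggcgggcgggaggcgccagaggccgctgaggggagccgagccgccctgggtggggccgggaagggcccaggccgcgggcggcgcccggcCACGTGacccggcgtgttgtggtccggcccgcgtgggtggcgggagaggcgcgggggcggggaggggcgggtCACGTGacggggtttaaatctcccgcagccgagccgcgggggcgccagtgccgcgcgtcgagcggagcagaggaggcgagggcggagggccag
The E-boxes began 115 and 43 bases before the gene start. CACGTG was found in 7.15% of all 32851 windows of 300 bases. The same window held 7 GC boxes (GGGCGG on either strand), none overlapping an E-box, and with 79% GC and 47 CpG dinucleotides it was the richest of the group in both. Windows were found for 9 of the 10 genes, 12 windows in all, the remaining gene being Naprt. A GC box occurred in at least 1 window of 8 of these 9 genes, all but Sirt4, and Sirt3 and Sirt6 each also had a window without it. Over all windows, counted singly and not per gene, 35.7% held a GC box. CpG counts ran from 15 to 47 against a median of 7 over all windows. These matches describe the letters and not the binding of a factor.

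Sirt6 acts on chromatin, where it deacetylates histone H3 and takes part in DNA repair. It was the scarcest of the genes (minus strand, chr10:81457619-81463631, ENSMUSG00000034748.17), with an estimated 61 to 200 reads per library. Values were 2.82, 4.30, 3.93, 2.57 and 4.38 CPM in SD_403, SD_501, SD_502, SD_646 and SD_500, and 3.58, 4.37, 2.83, 3.39 and 2.40 CPM in LD_405, LD_513, LD_406, LD_515 and LD_442. The diets overlapped over nearly their whole range, and the log2 difference was -0.11 (SE 0.27, 95% interval -0.70 to 0.47, limma adjusted p = 0.859). Under quantile normalisation its sign turned, to 0.19.

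Sirt7, a sirtuin of the nucleolus linked to ribosomal RNA transcription, had levels per length that overlapped those of Sirt2 (minus strand, chr11:120509198-120516066, ENSMUSG00000025138.15). The SD values were 56.5, 43.2, 37.0, 39.4 and 42.9 CPM in SD_403, SD_501, SD_502, SD_646 and SD_500, and the LD values 52.0, 45.6, 41.8, 28.3 and 36.7 CPM in LD_405, LD_513, LD_406, LD_515 and LD_442. The lowest mouse was LD_515 and the highest SD_403, with the other 8 between them. Means were 43.8 ± 7.56 and 40.9 ± 8.96 CPM (SD, n = 5 each), with a log2 difference of -0.11 (SE 0.20, 95% interval -0.54 to 0.31, limma adjusted p = 0.798). Leaving out LD_515 brought it to 0.01. Sirt7 shares 124 bases with Mafg on the same strand, which had the same log2 difference of -0.11.

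Sirt2, the cytosolic deacetylase known for its action on tubulin and metabolic enzymes, had the smallest p of the 10 genes in the exact permutation test and the third smallest in limma (plus strand, chr7:28466160-28488086, ENSMUSG00000015149.15). It measured 36.1, 38.3, 42.1, 36.0 and 48.9 CPM in SD_403, SD_501, SD_502, SD_646 and SD_500. The LD mice LD_405, LD_513, LD_406, LD_515 and LD_442 had 55.3, 55.1, 53.5, 42.7 and 38.9 CPM. LD_405, LD_513 and LD_406 exceeded every SD mouse, and LD_515 and LD_442 were within the SD range. Means were 40.3 ± 5.44 and 49.1 ± 7.73 CPM (SD, n = 5 each), a 1.21-fold ratio with a 95% interval of 0.937 to 1.57 (log2 0.28, SE 0.17, limma adjusted p = 0.425, two-sided exact permutation p = 0.0635). The log2 difference stayed between 0.14 and 0.38 over the 20 settings. Nfkbib, which overlaps 778 bases of Sirt2 on the opposite strand, had a log2 difference of 0.01.

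Sirt3 is the main deacetylase of the mitochondrial matrix and acts on enzymes of fat oxidation and ketogenesis (minus strand, chr7:140443579-140462222, ENSMUSG00000025486.18). It measured 57.8, 62.6, 71.6, 82.5 and 77.4 CPM in SD_403, SD_501, SD_502, SD_646 and SD_500, and 94.0, 62.0, 90.8, 64.8 and 60.2 CPM in LD_405, LD_513, LD_406, LD_515 and LD_442. The LD values formed a high pair, LD_405 and LD_406, above all SD mice, and 3 mice at the lower end of the SD range. The means of 70.4 ± 10.2 and 74.4 ± 16.6 CPM (SD, n = 5 each) gave a log2 difference of 0.06 (SE 0.19, 95% interval -0.34 to 0.47, limma adjusted p = 0.889). Its sign turned in 4 of the 20 settings. On the opposite strand, Ric8a shares 707 bases and Psmd13 342 bases with Sirt3, and their log2 differences were 0.10 and 0.31. The library type of each sample, directional or not, is not given, so reads of such partners may be shared.

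Sirt4, a mitochondrial sirtuin that inhibits glutamate dehydrogenase (minus strand, chr5:115616069-115622784, ENSMUSG00000029524.17), measured 11.7, 14.9, 7.99, 13.6 and 10.1 CPM in SD_403, SD_501, SD_502, SD_646 and SD_500. Its LD values were 11.2 CPM in LD_405, 4.80 in LD_513, 12.0 in LD_406, 10.7 in LD_515 and 11.0 in LD_442. LD_513 was the lowest of all, and the other 4 LD mice lay close together inside the SD range. The log2 difference was -0.26 (SE 0.28, 95% interval -0.86 to 0.33, limma adjusted p = 0.655), and -0.02 without LD_513.

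Sirt5 removes succinyl, malonyl and glutaryl groups from mitochondrial enzymes, carbamoyl phosphate synthetase among them (plus strand, chr13:43518972-43548679, ENSMUSG00000054021.7). Its values were 9.98, 6.36, 8.71, 9.68 and 8.37 CPM in SD_403, SD_501, SD_502, SD_646 and SD_500, and 11.1, 7.12, 10.2, 8.73 and 8.68 CPM in LD_405, LD_513, LD_406, LD_515 and LD_442. It was the steadiest of the 10 genes, with a coefficient of variation of 16.0%. The log2 difference was 0.09 (SE 0.21, 95% interval -0.36 to 0.54, limma adjusted p = 0.857), with the diets overlapping over most of their range.

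Across these genes, LD_405 was the mouse most often at an extreme. It was the highest of the 10 mice for Sirt2, Sirt3, Sirt5, Nmnat1 and Naprt and the lowest for Sirt1, whereas no other mouse was the highest for more than 1 gene. LD_406 was at no extreme, although it too exceeded every SD mouse for Sirt2, Sirt3, Sirt5, Nmnat1 and Naprt. SD_501 was the lowest mouse for Sirt5 and Naprt and the highest for Sirt4. Without LD_405, the log2 differences of Sirt3, Sirt5 and Naprt came to -0.03, 0.02 and 0.03.

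**Figure D4:**
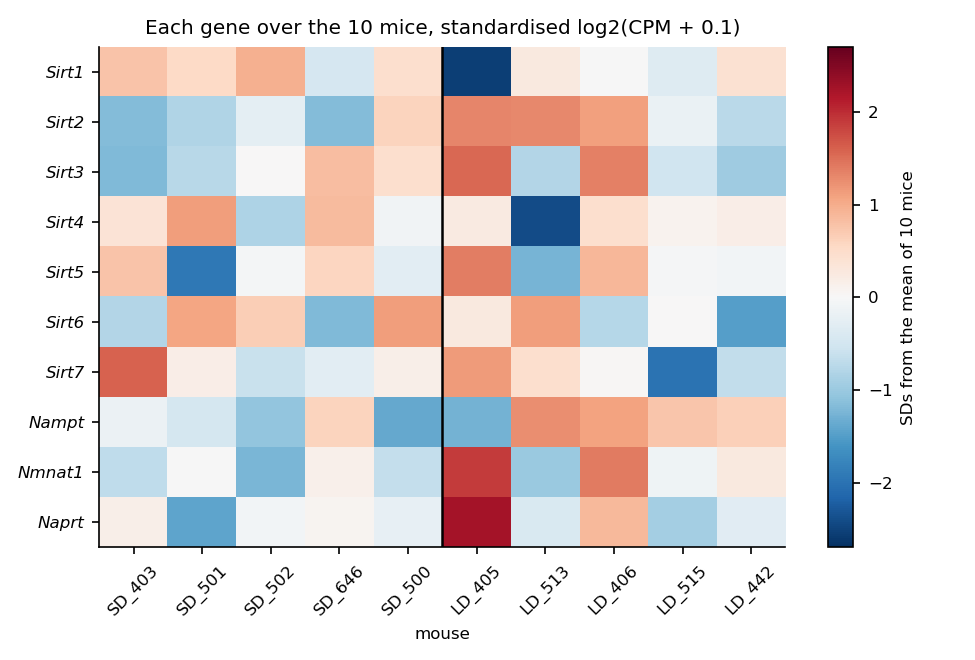
Each of the 10 genes (rows) in every mouse (columns, SD left of the line and LD right of it) as standard deviations of log2(CPM + 0.1) from the mean of 10 mice (colour). LD_405 is the deepest blue cell for Sirt1 and the deepest red for Naprt, and Nampt is red in the other 4 LD mice.

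The protein-coding genes most like Nampt over the 10 mice were Asap3, Fyb2, N4bp2l1, Hdac2 and Lurap1l. Likeness was the root mean square difference between values standardised over the mice, taken over 11565 genes, with 0 for identical patterns. It was 0.321 for Asap3 and 0.450 to 0.482 for the other 4, against a median of 1.30 over all candidates. Asap3 followed Nampt down to the low value of LD_405 (4.45 CPM) and the high value of LD_513 (16.8 CPM). Those most like Sirt1 were Ccdc50 (0.151), Sash1 (0.179), Stam (0.180), Vgll4 (0.180) and Med23 (0.184), against a median of 1.07. All 5 had their lowest value in LD_405, for example 16.8 CPM of Ccdc50 in LD_405 and 33.4 to 53.3 in the other 9 mice. None of these 10 genes was called between the diets. The points share depth and the length slope of each library, and the part of either in the likeness was not tested.

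The other genes of NAD salvage, with NAD transport, repair and phosphorylation, were 16 tested of 23 listed, and 0 rose and 0 fell. Their median log2 difference was -0.12, with -0.11 over all genes. The unadjusted p was under 0.05 for 4 of the 16, against 17.5% of all genes. The diets did not overlap for 2, against 5.5% of all genes. Nmrk1, the kinase that brings nicotinamide riboside into the pathway, measured 6.92 to 14.7 CPM on the standard diet and 14.8 to 22.4 on the Longevity diet, without overlap. Its means were 11.3 ± 2.87 and 17.4 ± 3.04 CPM (SD, n = 5 each), with a log2 difference of 0.64 that did not pass the test (SE 0.22, limma adjusted p = 0.159). Nadsyn1, which completes the route that Naprt begins, had 16.0 ± 5.28 and 23.4 ± 3.10 CPM (SD, n = 5 each; log2 0.60, limma adjusted p = 0.199). Slc25a51, the carrier of NAD+ into mitochondria, where Sirt3, Sirt4 and Sirt5 use it, had 50.8 ± 9.11 and 31.4 ± 8.81 CPM (log2 -0.72, limma adjusted p = 0.121). Nudt13, a mitochondrial hydrolase of NADH, had 10.5 ± 0.907 and 7.01 ± 0.822 CPM without overlap (log2 -0.57, limma adjusted p = 0.132). Both enzymes at the entry of nicotinamide riboside and at the end of the nicotinic acid route thus had higher means on the Longevity diet, in comparisons that did not reach the threshold.

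Clearance of nicotinamide was where a gene changed. Nnmt, which methylates nicotinamide and so removes the substrate of Nampt, fell in all 5 LD mice. It measured 79.1, 202, 27.9, 88.8 and 57.1 CPM in SD_403, SD_501, SD_502, SD_646 and SD_500. The LD values were 0.947, 4.51, 2.30, 0.5002 and 0.314 CPM in LD_405, LD_513, LD_406, LD_515 and LD_442. Every LD mouse was below every SD mouse, and Nnmt fell by 5.91 on the log2 scale (SE 0.64, limma adjusted p = 0.0016). This call held in all 20 alternative settings, while its size depended on the pseudocount and was -5.01 on the log2(CPM + 1) scale. Of the other 3 genes of this list, the aldehyde oxidases Aox1 and Aox3, which oxidise methylated nicotinamide, had log2 differences of 0.38 and -0.41 (limma adjusted p = 0.438 and 0.643). That of Aox3 came to -0.15 without LD_405 and to -0.0962 without SD_502. Cyp2e1, which oxidises nicotinamide, had 0.15 (limma adjusted p = 0.791). Of the 4 genes, 1 fell, against 1.89% of all genes called, and their median log2 difference was -0.13.

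Genes listed for NAD synthesis from tryptophan had lower means on the Longevity diet in all 8 tested of 9 listed, with 0 called in either direction. These 8 include Acmsd, which acts against the synthesis, so their count and median do not describe synthesis genes alone. The median log2 difference of the 8 was -0.66, and -0.55 without LD_405, with -0.11 over all genes for 10 mice. For 7 of the 8 the unadjusted p was under 0.05, against 17.5% of all genes, and for 3 the diets did not overlap, against 5.5% of all genes. The list was chosen with earlier results of these data known, so these counts are no test of it. Tdo2, which opens the pathway, had 466 ± 85.2 and 293 ± 100 CPM (SD, n = 5 each; log2 -0.73, limma adjusted p = 0.155). Afmid, the next enzyme, had 117 ± 15.9 and 70.1 ± 23.6 CPM (log2 -0.80, limma adjusted p = 0.0966), without overlap. Kynu had 87.1 ± 9.94 and 54.2 ± 9.02 CPM (log2 -0.69, limma adjusted p = 0.0658) and also did not overlap. Acmsd, which draws an intermediate away from NAD+ synthesis, had 12.2 ± 9.07 and 3.59 ± 0.907 CPM (log2 -1.51, limma adjusted p = 0.0765), again without overlap. Qprt, the last enzyme of the route and named here after its values were seen, was the exception among the 8, at 151 ± 25.0 and 144 ± 17.7 CPM (log2 -0.06, limma adjusted p = 0.882).

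**Figure D5:**
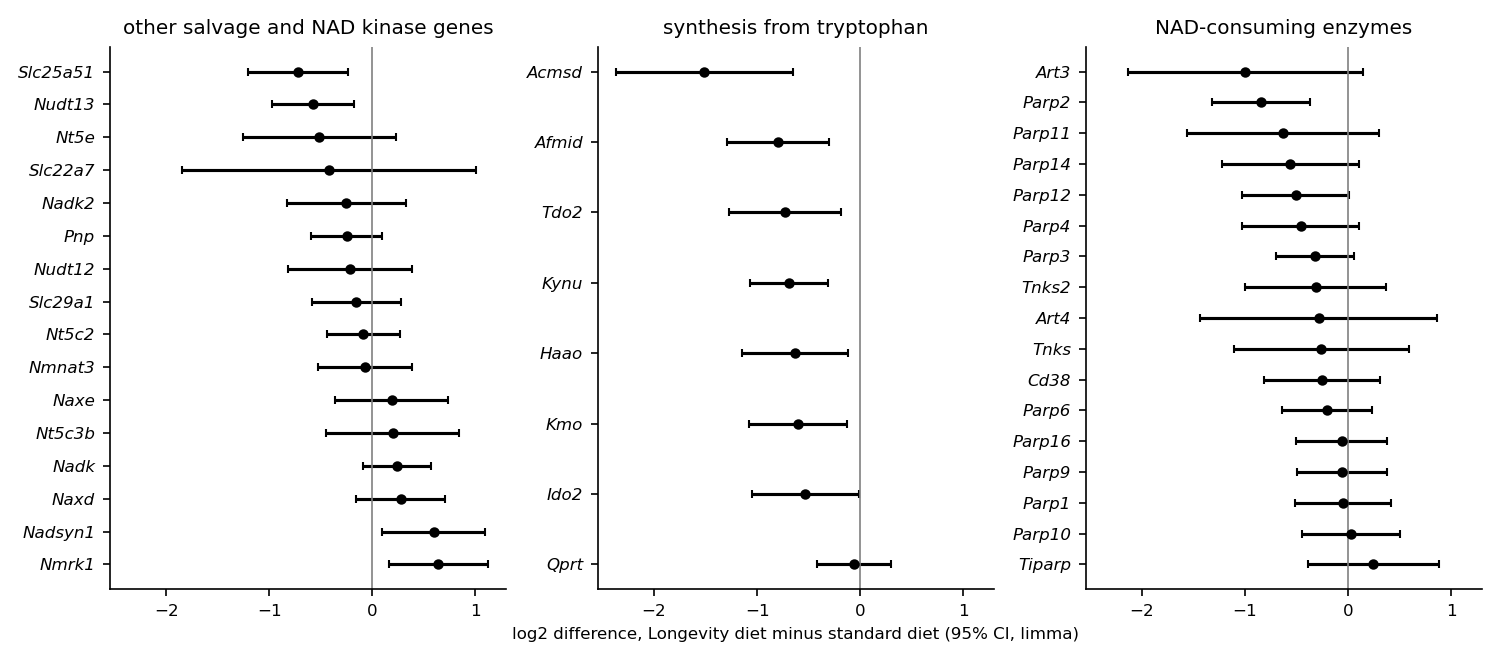
Log2 difference between the diets (x axis, LD minus SD, with 95% confidence interval from limma) for the tested genes of salvage and phosphorylation, of synthesis from tryptophan and of NAD consumption (y axis, sorted within each panel). All 8 genes listed for synthesis from tryptophan lie left of 0, from -1.51 for Acmsd to -0.06 for Qprt. Acmsd draws an intermediate away from that synthesis.

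Other consumers of NAD+, the poly-ADP-ribose polymerases, ADP-ribosyltransferases and NAD glycohydrolases, were 17 tested of 21, with 0 called and a median log2 difference of -0.29. Of the 17, 1 had an unadjusted p under 0.05, against 17.5% of all genes. The diets did not overlap for 1, against 5.5% of all genes. Parp2, which responds to DNA breaks, measured 6.14 to 11.1 CPM on the standard diet and 4.35 to 5.41 on the Longevity diet. Its groups did not overlap, and its log2 difference was -0.85 (SE 0.22, limma adjusted p = 0.0741). The next smallest p-values were those of Parp12 (log2 -0.51, limma adjusted p = 0.299), Art3 (-0.997, 0.353) and Parp14 (-0.56, 0.368). The zinc-dependent histone deacetylases, which need no NAD+, were 10 tested of 11, with 0 called and a median of -0.21. Among these 10, 2 had an unadjusted p under 0.05, near the 17.5% of all genes, and 1 did not overlap between the diets, against 5.5%. Hdac5 had 41.6 ± 6.42 and 26.9 ± 5.40 CPM without overlap (SD, n = 5 each; log2 -0.64, limma adjusted p = 0.110), followed by Hdac7 (-0.60, 0.259), Hdac6 (-0.43, 0.299) and Hdac1 (-0.65, 0.314). Endothelial and stellate markers were also lower on the Longevity diet, by the sums given above, and their part in these values was not tested.

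Of 11 proteins that bind or regulate sirtuins or serve as their targets in the nucleus, all tested, 0 changed, with a median log2 difference of -0.26. An unadjusted p under 0.05 was found for 0, against 17.5% of all genes. Those with the smallest p were Clock (-0.85, limma adjusted p = 0.396), the Sirt1 repressor Hic1 (-0.55, 0.399), Foxo3 (-0.32, 0.469) and Ccar2, an inhibitor of Sirt1 (-0.26, 0.496). Like Sirt1, Clock had its lowest value in LD_405, at 3.17 CPM, with 10.7 to 42.2 in the other 9 mice, and its log2 difference without LD_405 was -0.36.

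Metabolic enzymes that sirtuins are known to deacylate held 5 called genes of 22 tested, 3 higher and 2 lower, against 1.89% called of all genes. The median log2 difference of the 22 was 0.29. This list was chosen with earlier results of these data known, so its count is no test of the list. In fat oxidation, Hadhb rose from 62.0 ± 6.69 to 105 ± 13.0 CPM (SD, n = 5 each; log2 0.76, limma adjusted p = 0.0300) and Mlycd, which breaks down malonyl-CoA, from 88.5 ± 8.21 to 157 ± 30.3 CPM (0.81, 0.0314). Acadvl, named after its values were seen, rose from 292 ± 47.0 to 473 ± 32.4 CPM (0.71, 0.0380). In the urea cycle, Otc fell from 367 ± 29.7 to 208 ± 17.4 CPM (-0.82, 0.0128) and Cps1, a substrate of Sirt5, from 1598 ± 263 to 830 ± 251 CPM (-0.98, 0.0376). Of the 22, 6 had diets that did not overlap, against 5.5% of all genes. The 5 called genes were among these 6, which is no separate support, because the call and the overlap use the same values. Leaving out each of the 10 mice in turn kept the call of Otc each time. It ended that of Hadhb for 7 mice (SD_403, SD_501, SD_646, SD_500, LD_406, LD_515 and LD_442, adjusted p up to 0.0861) and that of Mlycd for 6 (the same without LD_442, up to 0.1003). It ended the call of Cps1 for 7 (all 5 SD mice, LD_515 and LD_442, up to 0.0900) and that of Acadvl for 8 (all but SD_502 and LD_405, up to 0.116). With the first-digit covariate, and so without SD_646, all 5 calls ended, with adjusted p from 0.0877 for Otc to 0.185 for Acadvl. Without the trend and robust options of limma, only that of Otc held, the other 4 having adjusted p from 0.0548 to 0.0686. The call of Acadvl also ended without a filter on low values (0.0552). These are mRNA levels, and acylation of the proteins was not measured in them.

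The time of day at which livers were taken is not given in the labels, and clock genes differed among the mice. Of 14 core clock genes tested, 1 rose, against 1.89% of all genes called, and the median log2 difference was 0.16. Ciart, a repressor of the clock, had 1.10 ± 0.987 and 9.04 ± 7.40 CPM (SD, n = 5 each; log2 2.89, limma adjusted p = 0.0449). That call was lost without any 1 of 8 mice (all but SD_646 and LD_442), with an adjusted p of up to 0.139. It was also lost with the first digit as a covariate (0.0769), without the trend and robust options (0.0657) and with a filter at 5 CPM (0.0608). Arntl, the gene of BMAL1, measured 21.3 CPM in SD_403, 1.22 to 5.69 in the other SD mice and 0.102 to 1.81 in the LD mice (log2 -2.60, limma adjusted p = 0.0904). Per1 (1.06, 0.157) and Npas2 (-1.76, 0.175) had the next smallest p. LD_405 had the lowest values of Arntl as of Sirt1 and, within the LD mice, of Nampt. The part of the clock phase in the values of Nampt and Sirt1 was not tested.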

How the data were processed

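Livers of 10 female HET3 mice, 5 per diet, were grouped by their titles and treatment labels. The authors deposited 1 table of CPM values for 19414 genes, in which the lowest value of each of the 10 columns is 0.0001, taken as a constant that the authors added and subtracted here. STAR, Partek and mm39 are named without versions, per the submitters' processing notes; the quantifier and the annotation are not given in the sources used here. Coordinates are those of the table on mm39. In each library, 79.2% to 87.9% of low values (fewer than 100 estimated reads) came within 0.1 of an integer number of reads, so the values were not treated as counts, and the depth of 24.7 to 45.7 M reads is an estimate.

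The 13157 genes averaging 1 CPM or more were tested as log2(CPM + 0.1) in R 4.3.3 with limma 3.58.1 and statmod 1.5.0, using its trend and robust options. The model held diet alone, tests were two-sided, and Benjamini-Hochberg adjusted p-values under 0.05 were called; rose, fell and changed are used for called genes only. The smallest p of the exact permutation test over 252 assignments is 0.00794. The scripts were tested on simulated data. Replicates are libraries of single mice by their titles. Lengths came from GENCODE M21 (GRCm38, 97.1% of genes) and promoter windows from RefSeq.

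The members and the 17 gene lists were chosen with earlier results of these data known. Named genes are all 10 members, every gene of the NAD lists that passed, up to 4 genes of each list with the smallest p, and the 5 genes most like Nampt and the 5 most like Sirt1; others are said to be so. Symbols on 2 rows of the table (Nnt) were not matched. Alternatives were other pseudocounts, filters, scalings and variance models, weights per library, a covariate for the first digit of the mouse number (its meaning is not given), and leave-one-out fits; removal of length slopes was added after seeing the data.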

Additional observations from a re-analysis of the deposited data

Results flagged for a closer look

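Of the 42 genes named from the lists, each on 2 diets, 8 of 84 groups of 5 mice held a mouse whose gap to the nearest of the others exceeded 0.71 of the whole range of its group. For independent, normally distributed values, chance alone would flag about 1 in 20 groups. CPM values of genes measured in the same mice need not be so, and 8 of 84 cannot be read against that rate. Both cases among the sirtuin and NAD salvage genes were low values: Sirt4 measured 4.804 CPM in LD_513, with 10.7 to 12.0 in the other LD mice, and Naprt measured 87.81 CPM in SD_501, with 113 to 123 in the other SD mice. In the wider lists, Nudt13 was high in SD_501 (12.05 CPM, others 9.77 to 10.2), Aox3 was high in SD_502 (219.7 CPM, others 50.2 to 90.7) and Parp12 was low in SD_646 (12.74 CPM, others 24.3 to 28.4). Foxo3 was high in LD_513 (31.28 CPM, others 20.0 to 22.9). SD_403 was high for 2 clock genes, with 21.32 CPM of Arntl (others 1.22 to 5.69) and 7.64 CPM of Npas2 (others 0.532 to 2.06).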

How the results depend on the processing

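No gene of the 10 was called, and only weights per library changed that count, to 1 (Nampt); leaving out any 1 mouse kept it at 0. The number of genes called over the whole table was 249, and 805 with weights per library, 98 with the leading digit as a covariate, 412 after removal of length slopes and 87 to 380 when each mouse was left out. SD_646 is the only mouse whose number starts with 6, so that covariate takes it out of the diet comparison. Over the lists of the NAD pathway, 1 gene was called, and 2 with quantile normalisation, 8 with weights per library, 2 after removal of length slopes and 1 to 3 when each mouse was left out, the 3 being without SD_502. The sign turned for Sirt3 with weights per library (-0.0833) and without SD_403, LD_405 or LD_406 (range over mice left out -0.0272 to 0.133), for Sirt5 without SD_501 (-0.0161 to 0.174), for Sirt6 with quantile normalisation (0.193), for Sirt7 without LD_515 (-0.207 to 0.0114) and for Cyp2e1 without SD_403 (-0.0882 to 0.282); none of these was called, and the cause was not tested. Sirt6 was not tested with the filter at 5 CPM. With either length, 8 of 9 neighbouring pairs in the order of levels overlapped, though the order differed. Median-of-ratios scaling and quantile normalisation raised the median log2 difference of all genes by 0.10 and 0.11. No paired analysis was possible because no mouse number occurs on both diets. The lower depth of the LD libraries limits Sirt6 most, at an estimated 61 reads in LD_442.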
